A study of Rattus norvegicus with 12 samples.

Results

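The long-chain acyl-CoA synthetases Acsl1, Acsl3, Acsl4, Acsl5 and Acsl6 were followed in rat left ventricle. They were found as every probe set whose annotation named exactly 1 gene and that gene was one of the 5 symbols. This gave 12 of the 8740 probe sets of the array: 4 for Acsl1, 2 for Acsl3, 3 for Acsl4, 2 for Acsl5 and 1 for Acsl6. The family was chosen by a measured value, the adjusted p of Acsl4 in the only contrast of the study. The difference of Acsl4 between the groups, and those of the other members in the same contrast, are therefore given as a description and support nothing.

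The study compared exercised rats, whose left ventricle was taken after 7 weeks of treadmill running (6 samples, exercised 1, 4, 5, 7, 8 and 9), with sedentary rats (6 samples, sedentary 13, 16, 17, 21, 23 and 24). Total RNA of each sample was measured on 1 single-channel array. No allele or drug is stated for either group, and strain, sex, age, running schedule and time of sampling are not stated in the labels. Whole ventricle holds myocytes, vessels, connective tissue and blood, so fewer cells of a type and less RNA per cell cannot be told apart. Whether the numbered samples came from separate animals is not stated. Each limma p sets a difference between the groups against the spread of these samples within the groups, and that spread may be technical.

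Long-chain acyl-CoA synthetases join a fatty acid to coenzyme A at the cost of ATP. The product, a fatty acyl-CoA, is the form in which a fatty acid can enter the mitochondrion for oxidation, be built into triglyceride or phospholipid, or be attached to proteins. Acsl1 is the main isoform of cardiac muscle, and in mice its loss from the heart strongly lowers fatty acid activation and oxidation. Acsl4 prefers arachidonic acid and other polyunsaturated fatty acids and thereby loads them into phospholipids. Acsl3 sits on the endoplasmic reticulum and on lipid droplets, Acsl5 is known from intestine and liver and is found on mitochondria, and Acsl6 is best known from brain and red cell precursors.

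The array medians lay between 840 and 875 intensity units. Of 9 measured cardiomyocyte markers, 8 had a higher and 1 a lower mean log2 level in exercised samples, none passed the test (limma; 0 of 9 at an unadjusted p under 0.05, and 0 by the exact rank-sum test), and their summed intensity was 348043 to 373963 on the exercised arrays and 339415 to 374648 on the sedentary arrays. Among all tested probe sets, 51.4% were higher in exercised samples by sign and 16.2% had an unadjusted limma p under 0.05. By the exact rank-sum test the share at an unadjusted p under 0.05 was 15.1%. Some arrays stood apart in Hbb or in members of the family. Hbb, a haemoglobin chain, ranged from 8786 to 33321 on the exercised arrays, with the low values on exercised 4 and 5, and from 31533 to 37794 on the sedentary arrays. The other measured erythroid markers spread less on the exercised arrays. Alas2 ran from 1831 to 2766 there and from 2140 to 3312 on the sedentary arrays. For Slc4a1 the values were 2295 to 2508 and 2441 to 3067. Sedentary 17 was the lowest sedentary array for the brighter probe set of Acsl3 and for 3 of the 4 probe sets of Acsl1, and the highest for Acsl6. Intensities of different probe sets cannot be ranked against each other, since each binds with its own strength, so no order of the isoforms by level is given.

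Acsl4 was the member that passed the test. On its brightest probe set, rc_AI236284_s_at, the exercised arrays had a lowest intensity of 1423, a median of 1585 and a highest of 1822, against a lowest of 1068, a median of 1207 and a highest of 1363 on the sedentary arrays. Every exercised array, from exercised 7 at the low end to exercised 5 at the high end, was above every sedentary array, the closest being sedentary 24. Acsl4 averaged 1614 ± 170 in exercised samples and 1216 ± 102 in sedentary samples (SD, n = 6 each). On the scale of log2(intensity + 363), exercised minus sedentary was 0.32 ± 0.061 (SE; 95% interval 0.19 to 0.45), with a limma adjusted p of 0.0404 over all 6555 tested probe sets. This is the value for which the family was chosen.

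Acsl4 was 1 of 9 tested Acsl probe sets past an adjusted p of 0.05 and the only one of them whose groups did not overlap. Over all tested probe sets, 0.32% passed in either direction, 0.275% passed and were higher in exercised samples, 0.0458% passed and were lower, and 2.07% had groups that did not overlap. By sign alone, 5 of the 9 were higher in exercised samples, where 51.4% of all tested probe sets were. Since the choice of the family used this contrast, nothing is read from these counts. The call was also narrow. It was kept without exercised 4 (limma adjusted p = 0.0432) and without sedentary 17 (0.0403). It was lost without each of the other arrays, at limma adjusted p of 0.0553, 0.0922, 0.0501, 0.0842 and 0.0738 without exercised 1, 5, 7, 8 and 9, and of 0.0528, 0.0882, 0.0778, 0.0947 and 0.0581 without sedentary 13, 16, 21, 23 and 24. The difference itself stayed between 0.29 and 0.35 when 1 array was left out.

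**Figure D1:**
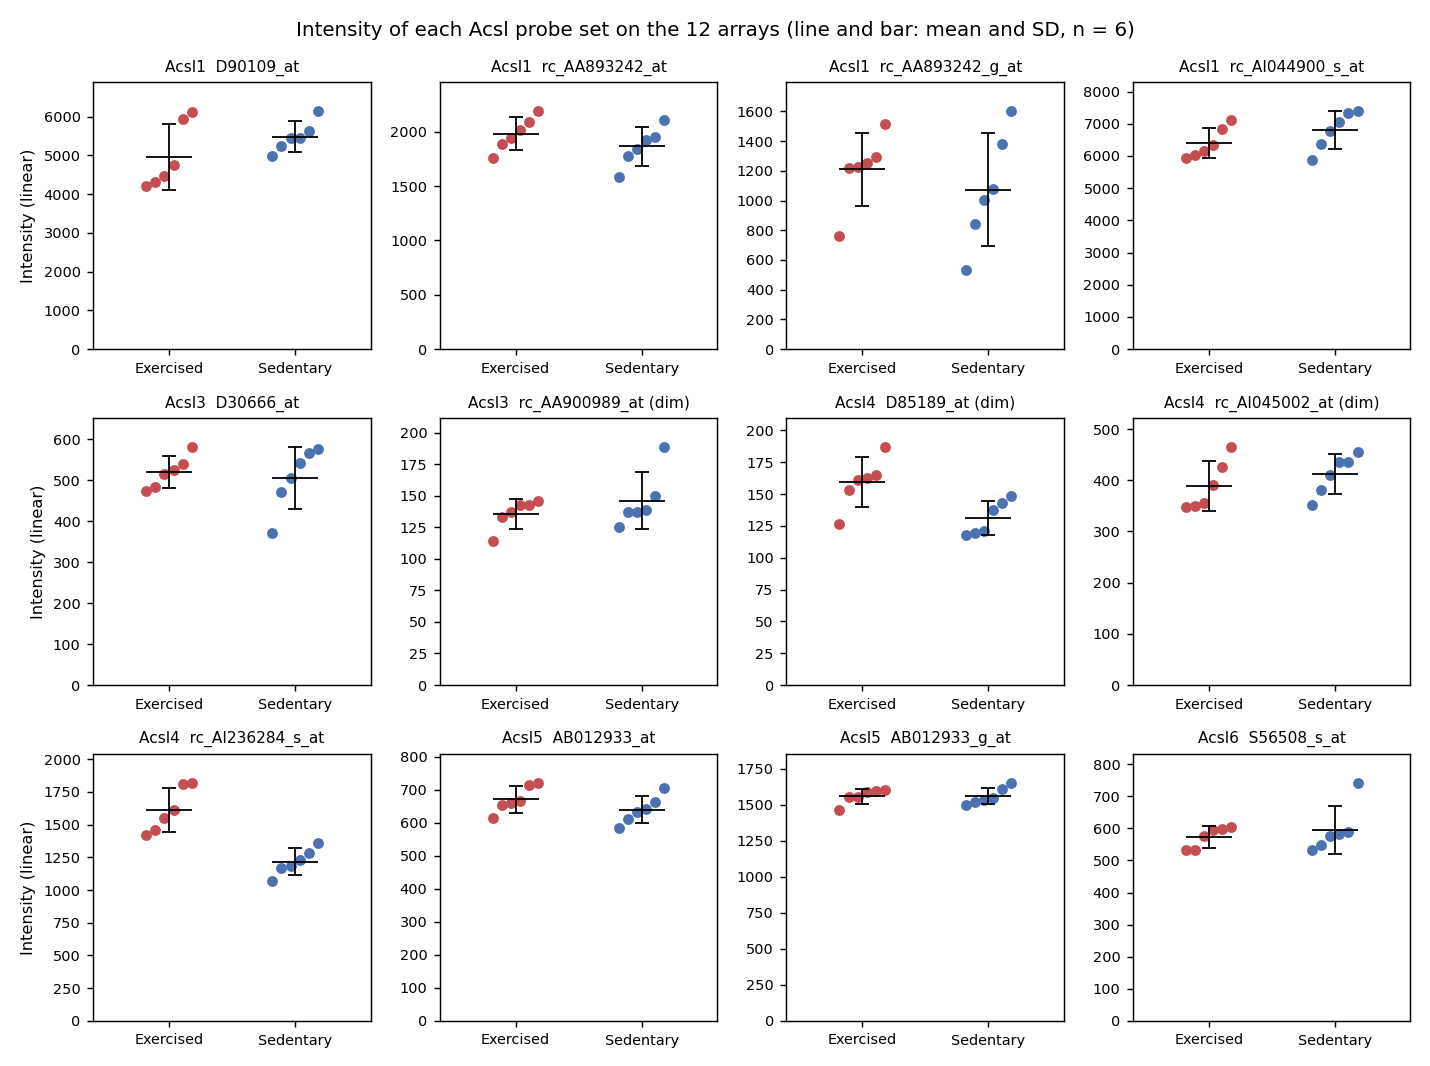
Intensity on a linear scale (vertical axes, starting at 0) of each of the 12 Acsl probe sets, with the 6 exercised arrays in red on the left and the 6 sedentary arrays in blue on the right, each sorted by value; the line and bar are the mean and SD. Acsl4 rc_AI236284_s_at is the only panel in which all exercised points lie above all sedentary points (lowest exercised 1423, highest sedentary 1363); panels marked dim were below the filter on low values.

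The other 2 probe sets of Acsl4 were dim and fell below the filter, a mean of 434 over the 12 arrays, so they had no test in the planned fit. They differed in sign. On D85189_at the exercised arrays had a lowest value of 127, a median of 162 and a highest of 187, and the sedentary arrays 118, 129 and 148. All exercised arrays except exercised 9 were above all sedentary arrays there, and the log2 difference was 0.08. With the filter removed, its limma adjusted p was 0.185. On rc_AI045002_at the exercised arrays had a lowest value of 348, a median of 373 and a highest of 465, and the sedentary arrays 352, 422 and 456. The groups overlapped almost fully and the log2 difference was -0.04 (limma adjusted p = 0.637 without the filter). The pseudocount of 363 shrinks differences of such dim probe sets, and the difference of D85189_at was 0.13 with a smaller one of 154, 0.050 with a larger one of 657 and 0 with values floored at 363.

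With group means removed, the deviations of rc_AI236284_s_at did not run parallel to those of its dim partners across the 12 arrays (Pearson r = -0.04 with D85189_at and -0.43 with rc_AI045002_at). These r values describe how far probe sets of 1 gene on the same arrays track each other, at low signal for the dim ones. The ending _s_at marks probes that can match more than 1 related transcript in the naming of this array type, and the transcripts matched here were not analysed. The higher level of Acsl4 therefore rests on 1 probe set out of 3.

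Acsl1, the main cardiac isoform, had 4 tested probe sets and none passed (limma; 0 of 4 at an unadjusted p under 0.05, against 16.2% of all tested probe sets). They pointed in both directions, 2 higher and 2 lower by sign. On rc_AI044900_s_at, the brightest, the exercised arrays had a lowest value of 5937, a median of 6247 and a highest of 7104, and the sedentary arrays 5869, 6916 and 7399. The 2 groups overlapped over nearly their whole range. The log2 difference was -0.08 ± 0.066 (SE; 95% interval -0.22 to 0.06, limma adjusted p = 0.553).

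The next Acsl1 probe set by brightness, D90109_at, split the exercised arrays. Exercised 1, 4, 5 and 7 lay between 4203 and 4745, below every sedentary array, while exercised 8 and 9 had 6125 and 5941. The sedentary arrays ran from 4971 to 6144 with a median of 5444. The coefficient of variation was 17.1% in the exercised and 7.2% in the sedentary samples, and the log2 difference was -0.14 ± 0.091 (95% interval -0.34 to 0.05, limma adjusted p = 0.446). No label separates exercised 8 and 9 from the other exercised samples.

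The probe sets rc_AA893242_at and rc_AA893242_g_at, which carry the same tag name, were higher in exercised samples by sign. On rc_AA893242_at the exercised arrays had values of 1759.9 to 2192 with a median of 1979, and the sedentary arrays 1586 to 2112 with a median of 1882 (log2 difference 0.07, 95% interval -0.06 to 0.21). On rc_AA893242_g_at the values were 759 to 1515 with a median of 1237 in exercised samples and 534 to 1602 with a median of 1039 in sedentary samples (0.16, -0.19 to 0.51). This second one was the most variable probe set of the family, with coefficients of variation of 20.4% in exercised and 35.4% in sedentary samples. Its lowest values were those of sedentary 17 and exercised 5. Without sedentary 16 and 17, a pair left out after the data were seen, its difference was -0.0064. The 4 probe sets of Acsl1 did not track each other closely within the groups, with Pearson r from -0.33 to 0.59 over the 6 pairs and 12 arrays.

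**Figure D2:**
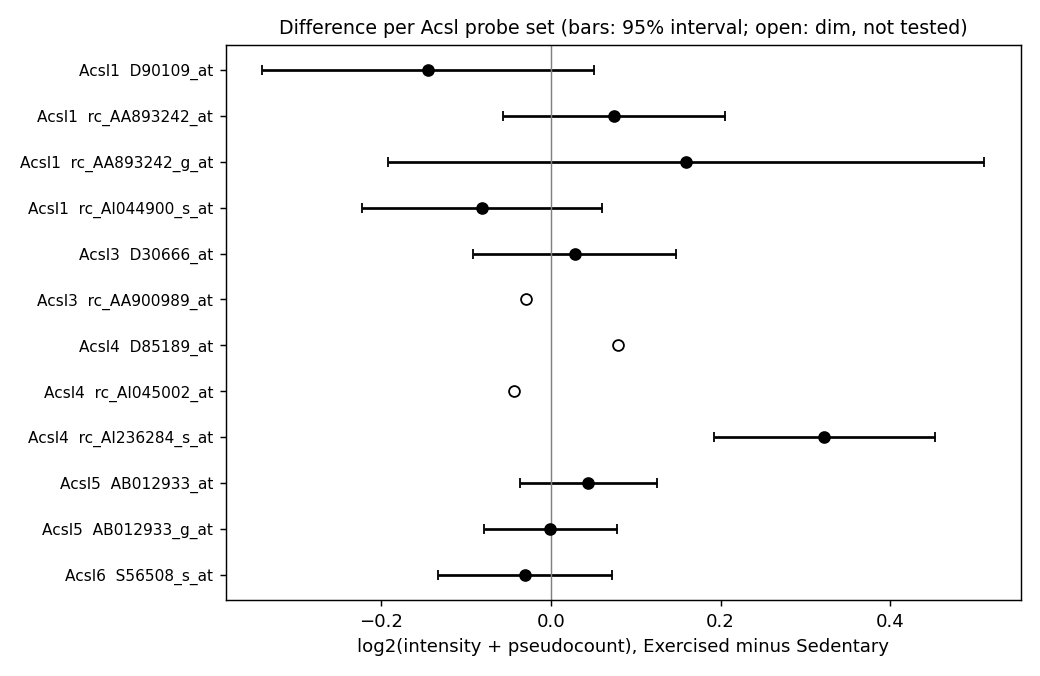
Exercised minus sedentary difference in log2(intensity + 363) for each Acsl probe set, with its 95% interval from the limma fit; open points are the 3 dim probe sets without a test. The interval of Acsl4 rc_AI236284_s_at runs from 0.19 to 0.45 and lies above 0, and the intervals of the other 8 tested probe sets include 0.

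Acsl4 was set against Acsl1 as the difference of their log2(intensity + 363) values on each array, using the brightest probe set of each gene. Both of these probe sets carry the ending _s_at. A higher value means more Acsl4 signal for the same Acsl1 signal, and its absolute level has no meaning. It had a lowest value of -2.01 and a highest of -1.53 on the exercised arrays, against -2.38 and -2.01 on the sedentary arrays. The groups touched at their edges, where exercised 7 (-2.015) lay just below sedentary 23 (-2.011). The mean was -1.78 ± 0.16 in exercised and -2.18 ± 0.13 in sedentary samples (SD, n = 6 each), a difference of 0.40 ± 0.082 (SE), which was not tested because the contrast had chosen Acsl4. It stayed between 0.35 and 0.45 when 1 array was left out.

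How far the isoforms parted depended on the probe sets compared. With rc_AI236284_s_at for Acsl4, the difference of the log2 ratio was 0.47 ± 0.11 against D90109_at, 0.25 ± 0.082 against rc_AA893242_at and 0.16 ± 0.21 against rc_AA893242_g_at. With the dim probe sets of Acsl4 it ran from -0.20 to 0.22 over the 8 pairs. The pseudocount of 363 shrinks the differences of these dim probe sets, and so their part in the ratio. Against the other members, each by its brightest probe set, the log2 ratio of Acsl4 was higher in exercised samples by 0.29 ± 0.097 over Acsl3, 0.32 ± 0.073 over Acsl5 and 0.35 ± 0.075 over Acsl6. Only the ratio to Acsl6 had groups without overlap, with a lowest exercised value of 0.89 and a highest sedentary value of 0.86.

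**Figure D3:**
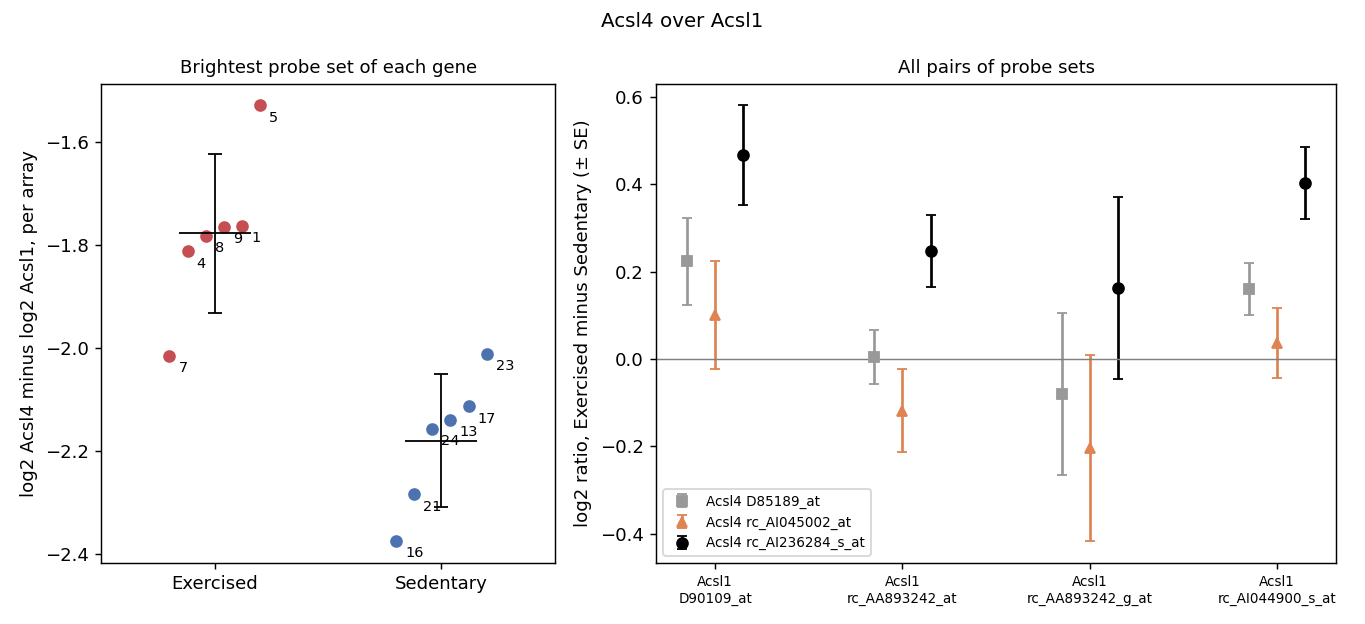
Left, log2(intensity + 363) of Acsl4 minus that of Acsl1 on each array for the brightest probe set of each gene, with sample numbers, mean and SD. Exercised arrays are left and sedentary arrays right, with means of -1.78 and -2.18. Right, the exercised minus sedentary difference of that log2 ratio (± SE) for all 12 pairs of probe sets, from -0.20 to 0.47.

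Acsl3, the isoform of the endoplasmic reticulum and lipid droplets, had 1 tested probe set, D30666_at. Its exercised arrays had a lowest value of 475, a median of 520.3 and a highest of 582, and its sedentary arrays 370.3, 524 and 576. Apart from sedentary 17, which held the lowest, the groups covered nearly the same range. The log2 difference was 0.03 ± 0.056 (95% interval -0.09 to 0.15, limma adjusted p = 0.817), and without sedentary 17 it was -0.02. The dim probe set rc_AA900989_at had values of 114 to 145 in exercised and 125 to 189 in sedentary samples, again with sedentary 17 at the end of the range, here the top.

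Acsl5 had the smallest spread between arrays, by the brightest probe set of each member. On AB012933_g_at the exercised arrays had a lowest value of 1461, a median of 1571 and a highest of 1604, and the sedentary arrays 1501, 1539 and 1653. The coefficient of variation was 3.36% in exercised and 3.70% in sedentary samples. The log2 difference was 0.00 ± 0.037 (95% interval -0.08 to 0.08, limma adjusted p = 0.995). On AB012933_at the values were 614 to 722 in exercised and 584 to 706 in sedentary samples, with a log2 difference of 0.04 (95% interval -0.04 to 0.12, limma adjusted p = 0.568). The 2 probe sets tracked each other loosely within the groups (Pearson r = 0.38 over 12 arrays).

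Acsl6 had a single probe set, S56508_s_at, which also carries the ending _s_at. Its exercised arrays had a lowest value of 532, a median of 586 and a highest of 606, and its sedentary arrays 532, 580.3 and 743. The top sedentary value was that of sedentary 17, and the other sedentary arrays lay between 532 and 588, like the exercised ones. The log2 difference was -0.03 ± 0.048 (95% interval -0.13 to 0.07, limma adjusted p = 0.756), and 0.01 without sedentary 17. For Acsl1, Acsl3, Acsl5 and Acsl6, a p that misses the threshold does not show equal levels. The widest interval, that of Acsl1 rc_AA893242_g_at, still allows a rise larger than that measured for Acsl4.

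The choice of the family did not use how the members vary together between arrays of the same group, so this was tested. For the brightest probe set of each gene, with group means removed, 10 pairs were correlated over the 12 arrays by a permutation test within groups. No pair passed after adjustment (0 of 10 at an adjusted or an unadjusted p under 0.05, for Pearson's r and for Spearman's rho). Acsl4 and Acsl1 had r = 0.16 (permutation p = 0.611, adjusted 0.773) and rho = 0.15 (permutation p = 0.651, adjusted 0.916). Their r was 0.04 within the exercised and 0.30 within the sedentary samples, and 0.14 without sedentary 21 and 23, the arrays farthest from the median of Acsl1, with the group means kept or recomputed.

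The pair with the largest r was Acsl3 and Acsl6, at -0.68 (permutation p = 0.0839, adjusted 0.773), with rho = -0.45 (permutation p = 0.161, adjusted 0.730). Its size depended on sedentary 17. Without that array r was -0.16 with the group means of all 12 arrays kept and 0.0021 with the means recomputed. Without exercised 4 and sedentary 17, the arrays farthest from the median of Acsl3, it was -0.41 with the means kept and -0.27 with the means recomputed. It was -0.08 within the exercised and -0.82 within the sedentary samples. The r of the other 8 pairs ran from -0.25 to 0.17.

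**Figure D4:**
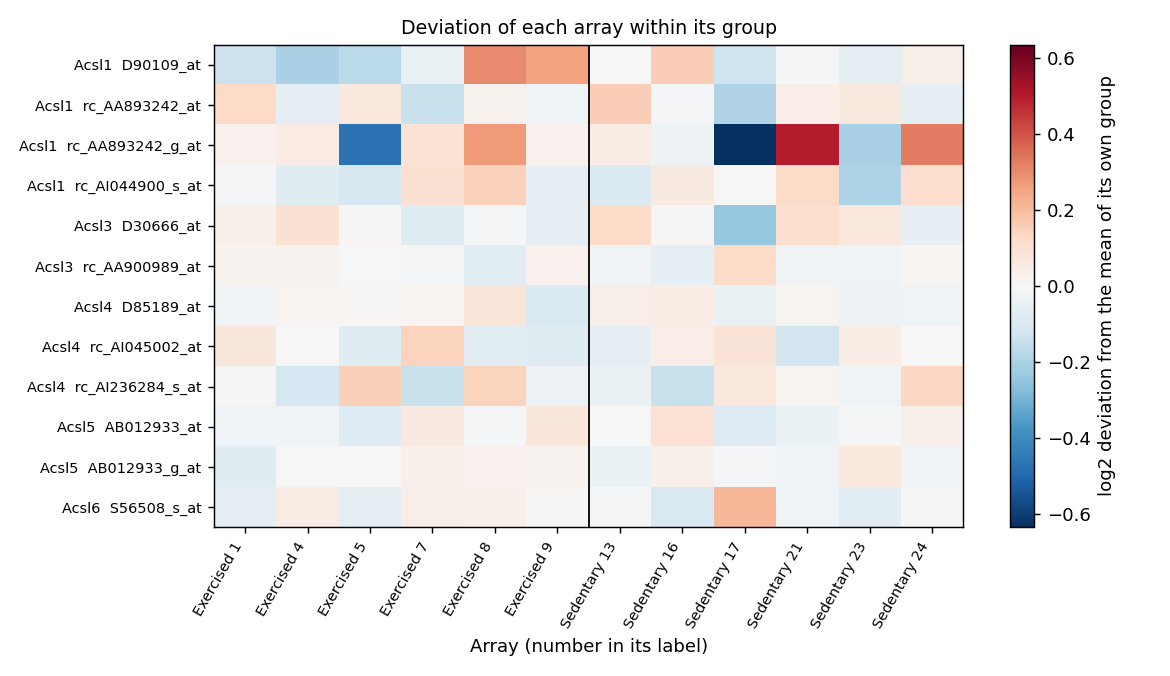
Deviation of each array from the mean of its own group, in log2 units, for the 12 Acsl probe sets (rows) and the 12 arrays (columns, exercised left of the line, sedentary right of it). Red is above and blue below the group mean. Sedentary 17 is low for Acsl3 D30666_at and Acsl1 rc_AA893242_g_at and high for Acsl6, and the probe sets of 1 gene often differ in colour on the same array.

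The genes whose deviations within the groups were most like those of Acsl4 were found among 3875 other genes, each by its brightest probe set. They were Actn2, the alpha-actinin of the Z-disc (Pearson r = 0.93 over the 12 arrays, with 0.95 in the exercised and 0.89 in the sedentary samples), Accs (0.81), Fam162a (0.80), Lrch4 (0.78) and Ppp2r1a, a scaffold subunit of protein phosphatase 2A (0.77). None of the 5 passed the test between the groups, with log2 differences of -0.08 to 0.05 and limma adjusted p of 0.523 to 0.978. For Acsl1 they were Hnrnpa1, an RNA-binding protein (0.844), the ATP synthase subunit Atp5f1d (0.843), Btg1 (0.82), the cytokine receptor subunit Il6st (0.81) and Tcf4 (0.80), with log2 differences of 0.05 to 0.20 and limma adjusted p of 0.196 to 0.759. These r are the highest of 3875 and come with no test.

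Markers of other cell types were set beside Acsl4. Of 9 fibroblast markers, 7 were higher and 2 lower by sign, none passed (limma; 3 at an unadjusted p under 0.05, and 1 by the exact rank-sum test), and the median log2 difference was 0.21. Over all tested probe sets, 16.2% had an unadjusted limma p under 0.05 and 15.1% of the 6535 without tied values an exact rank-sum p under 0.05. Their summed intensity was 50288 to 76523 on the exercised and 40288 to 54205 on the sedentary arrays. Of 6 macrophage and leukocyte markers, 2 were higher and 4 lower by sign, 3 had an unadjusted limma p under 0.05 (3 by the exact rank-sum test), and Lyz2, the lysozyme of myeloid cells, passed (log2 difference 0.997 ± 0.18, limma adjusted p = 0.0404). Lyz2 ran from 3274 to 9078 on the exercised and from 1999.5 to 2854 on the sedentary arrays, and the summed intensity of the 6 from 17153 to 23304 on the exercised and from 16098 to 18223 on the sedentary arrays. Without Lyz2, the sum of the other 5, of which 1 was higher and 4 lower by sign, was 13625 to 14805 on the exercised and 13838 to 15872 on the sedentary arrays. Most of this sum was Cd74, with a mean of 8087 against a mean sum of 14341 in exercised samples. The 1 higher marker was C1qb (log2 difference 0.37 ± 0.093, limma adjusted p = 0.0910). Aif1, among the lower ones, gave -0.20 ± 0.065 (limma adjusted p = 0.164).

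In the other marker lists no member passed. The median log2 difference was 0.10 over 5 smooth muscle markers (summed intensity 6118 to 8398 in exercised and 5257 to 7294 in sedentary samples), -0.01 over 5 endothelial markers (7369.9 to 8194 in exercised and 7313 to 8159.7 in sedentary samples), 0.00 over 5 adipocyte markers (22482 to 26609 in exercised and 20711 to 22534 in sedentary samples) and -0.28 over 3 erythroid markers (13476 to 38361 in exercised and 37211 to 42376 in sedentary samples). The unadjusted limma p was under 0.05 for 2 smooth muscle, 0 endothelial, 1 adipocyte and 2 erythroid markers, and the exact rank-sum p for 1, 1, 1 and 2. No measured marker was at 0 on any array. By sign, 4 smooth muscle, 2 endothelial, 2 adipocyte and 0 erythroid markers were higher, and 1, 3, 3 and 3 were lower. The highest summed level was on an exercised array for the fibroblast, macrophage and leukocyte, smooth muscle, endothelial and adipocyte lists. A summed intensity follows the brightest markers of its list. Most of the adipocyte sum was Fabp4, with a mean of 14599 in exercised and 12170 in sedentary samples (limma adjusted p = 0.0920). The part of these cell types in the difference of Acsl4 between the groups was not tested. The relations given next had the group means removed, so they do not test it.

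Within the groups, no relation of Acsl4 with these lists passed. With group means removed, its Pearson r with the mean log2 level of a list was -0.28 for fibroblast and -0.29 for macrophage and leukocyte markers (permutation p = 0.436 and 0.418), with rho of -0.21 and -0.32 (permutation p = 0.542 and 0.373). Without the 2 arrays farthest from the median of the list, the r were 0.10 and -0.44 with the group means kept, and 0.26 and -0.51 with the means recomputed. For the other 5 lists, cardiomyocyte markers included, r ran from -0.38 to 0.23. Without the 2 arrays farthest from the median of each list, it ran from -0.45 (adipocyte) to 0.52 (cardiomyocyte) with the means kept. With the means recomputed it ran from -0.51 to 0.61 for the same lists. The r with the endothelial markers moved from 0.08 to 0.51 with the means kept and to 0.53 with the means recomputed. Over the 14 relations of Acsl4 and Acsl1 with the 7 lists, none passed after adjustment. The smallest p was that of Acsl1 with the endothelial markers (r = 0.65, permutation p = 0.0264, adjusted 0.369, and rho = 0.69, permutation p = 0.0125, adjusted 0.175), with r = 0.57 without exercised 5 and sedentary 13, with the means kept or recomputed. It was 1 of 14 relations at an unadjusted p under 0.05.

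Among genes that act before and after acyl-CoA synthesis, 1 passed the test. Of 53 measured genes on 6 lists, it was higher in exercised samples, 0 were lower and past the threshold, 27 were higher by sign and the median log2 difference was 0.0029, against 0.0027 over all tested probe sets. Over all tested probe sets, 0.32% passed. At an unadjusted p under 0.05 there were 7 of the 53 by limma, against 16.2% of all tested probe sets, and 10 by the exact rank-sum test, against 15.1%. The lists were written with earlier results of these data known.

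The gene that passed was Ppt1, a lysosomal enzyme that removes palmitate from proteins, on the list of acyl-CoA binding proteins and thioesterases (5 measured, 1 past the threshold). It ran from 951 to 1111 on the exercised and from 761 to 908 on the sedentary arrays, without overlap. The log2 difference of Ppt1 was 0.22 ± 0.043 (limma adjusted p = 0.0404). Over all tested probe sets, 2.07% had groups that did not overlap and 0.32% passed, so nothing is read from 1 such gene among the 53. The call of Ppt1 was kept without exercised 1, sedentary 13 or sedentary 17 (limma adjusted p = 0.0376, 0.0383 and 0.0483). It was lost without exercised 4, 5, 7, 8 or 9 (0.0989, 0.0922, 0.104, 0.0917 and 0.0738) and without sedentary 16, 21, 23 or 24 (0.0763, 0.0778, 0.0952 and 0.0944).

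Arachidonic acid is the preferred substrate of Acsl4, and of 19 measured genes of its release and conversion none passed (limma; 3 at an unadjusted p under 0.05, and 3 by the exact rank-sum test), with 9 higher and 10 lower by sign and a median of -0.01. Over all tested probe sets, the share at an unadjusted p under 0.05 was 16.2% by limma and 15.1% by the exact rank-sum test. The counts on the lists that follow stand against the same shares. The secreted phospholipase Pla2g2a, which frees fatty acids from phospholipids, had 1307 to 2836 on the exercised and 1029.8 to 1619 on the sedentary arrays (log2 difference 0.51 ± 0.14, limma adjusted p = 0.107). Its exercised arrays spread widely and the groups overlapped. The prostacyclin synthase Ptgis gave 0.15 ± 0.053 (limma adjusted p = 0.171). The cytosolic phospholipase Pla2g4a, which favours arachidonic acid, gave 0.01 ± 0.059, the cyclooxygenases gave 0.03 ± 0.039 for Ptgs1 and -0.15 ± 0.069 for Ptgs2, and Gpx4, which reduces oxidised phospholipids, gave 0.05 ± 0.073. The limma adjusted p of these 4, named after their values were seen, lay between 0.311 and 0.938.

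Among 3 other synthetases and fatty acid transport proteins none passed (limma; 1 at an unadjusted p under 0.05, and 1 by the exact rank-sum test). Slc27a1, a transport protein of the plasma membrane with synthetase activity, had 1713 to 2408 on the exercised and 1701 to 1859 on the sedentary arrays (0.18 ± 0.058, limma adjusted p = 0.151), and the medium-chain synthetase Acsm3 gave -0.06 ± 0.053. Of 9 genes of mitochondrial entry and oxidation none passed (limma; 1 at an unadjusted p under 0.05, and 3 by the exact rank-sum test), with 5 higher and 4 lower by sign and a median of 0.05. The carnitine palmitoyltransferase of liver type, Cpt1a, gave 0.16 ± 0.060 and the very-long-chain dehydrogenase Acadvl 0.16 ± 0.073, with limma adjusted p of 0.204 and 0.311.

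Of 8 genes of glycerolipid synthesis and lipid droplets none passed (limma; 0 at an unadjusted p under 0.05, and 1 by the exact rank-sum test). The lipid droplet coat protein Plin2 gave 0.10 ± 0.053 and the monoglyceride lipase Mgll 0.08 ± 0.054, with limma adjusted p of 0.370 and 0.455. Of 9 lipid-sensing nuclear receptors and coactivators none passed either (limma; 1 at an unadjusted p under 0.05, and 1 by the exact rank-sum test). Rxrb, the partner receptor of many of them, gave -0.14 ± 0.048 and Ppard -0.12 ± 0.063, with limma adjusted p of 0.173 and 0.362. Ppara, the fatty acid sensor of liver and heart, named after its value was seen, gave 0.01 ± 0.063 (limma adjusted p = 0.952).

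**Figure D5:**
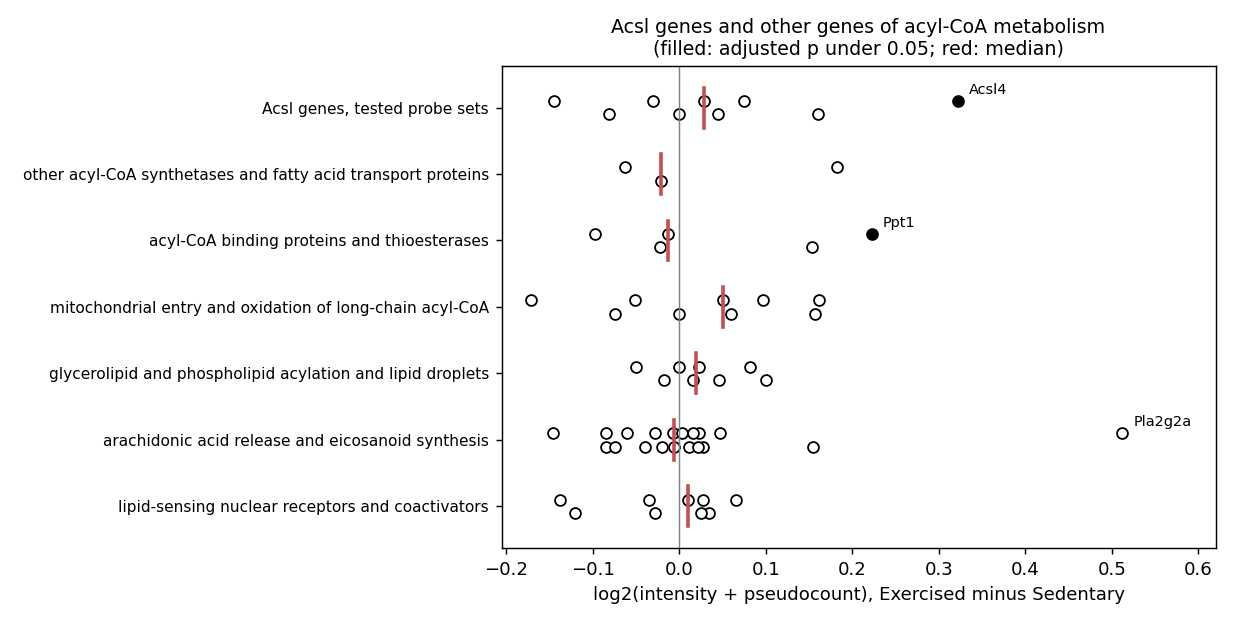
Log2 difference, exercised minus sedentary, of the 9 tested Acsl probe sets (top row) and of the genes on the 6 other lists, 1 probe set per gene; filled points have a limma adjusted p under 0.05 and the red bar is the median of the row. Only Acsl4 (0.32) and Ppt1 (0.22) are filled, and Pla2g2a (0.51) is the widest open point.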

How the data were processed

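The table used here held 1 intensity per probe set for each of 12 arrays (6 exercised, 6 sedentary). The intensity values deposited by the authors are linear. How they were background-corrected and scaled was not given in the sources used here, and a global scaling hides a change of total RNA per cell. No value was below 0, the highest array median was 1.04 times the lowest, and the deposited scaling was kept. Values were taken as log2(intensity + 363), the pseudocount being the 20th percentile of all values. Probe sets with a mean over 434, the 25th percentile of the means, were tested (6555 of 8740). The test was limma 3.58.1 in R 4.3.3 (lmFit, eBayes with a mean-variance trend, two-sided, Benjamini-Hochberg over all tested probe sets, threshold 0.05). The code was tested on simulated data.

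Gene names were those of the platform annotation. Of 8740 probe sets, 7006 named 1 gene, 308 several and 1426 were unnamed here; 6985 of the 7006 matched a RefSeq gene by Entrez ID. No build was given, so no coordinates are printed. A gene with several probe sets was represented by the brightest, and all are given for the Acsl genes. Correlations used 100000 permutations within groups (Python 3.11.15, numpy 2.4.6), two-sided, adjusted over the 10 pairs or the 14 relations with marker lists. The marker relations were added after seeing the data.

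Genes named were all Acsl members, list members past the threshold or else the 2 of smallest p, the 5 most alike to Acsl4 and to Acsl1, Lyz2, Hbb and any other marker past the threshold. Pla2g4a, Ptgs1, Ptgs2, Gpx4, Ppara, Cd74, C1qb, Aif1, Fabp4, Alas2 and Slc4a1 fall outside that rule. Members and lists were chosen with earlier results of these data known. The 12 arrays limit the precision. Title numbers are not shared between groups and no batch is given, so neither was modelled. Alternatives were other pseudocounts, a floor, filters, scalings, variance models, an exact rank-sum test (20 probe sets with tied values had no exact p) and arrays left out.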

Additional observations from a re-analysis of the deposited data

Results flagged for a closer look

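In 26 groups of 6 values, 1 sample lay far from the other 5 in 2 groups, where chance gives about 1 in 20 groups. On the Acsl6 probe set S56508_s_at, sedentary 17 had 743, against 532 to 588 on the other sedentary arrays. On the Acsl5 probe set AB012933_g_at, exercised 1 had 1461, against 1553 to 1604 on the other exercised arrays. The cause was not tested for either.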

How the results depend on the processing

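Acsl4 rc_AI236284_s_at was higher in exercised samples under all 25 alternatives (log2 difference 0.28 to 0.41) and past the threshold under 12 (adjusted p 0.0232 to 0.113). It missed the threshold without sedentary 16 and 17 (limma, 0.0846), without exercised 4 and 5 (limma, 0.113) and in 10 of 12 fits that left out 1 array. The pairs of arrays were left out after the data were seen. By the exact rank-sum test no probe set could pass here: 136 share the smallest p that 6 against 6 arrays allow (0.0022), Acsl4 among them, and their adjusted p is 0.104. Its counts of 0 therefore say nothing about Acsl4. Tested Acsl probe sets past the threshold numbered 0 by the rank-sum test and without either pair, and 0 to 1 without 1 array; the same holds for the 53 pathway genes, which had 2 (Ppt1 and Pla2g2a) with array weights. Over all probe sets, 21 passed, against 32 with no filter, 50 with a filter at the median, 42 without the variance trend, 160 with array weights, 0 by the rank-sum test (987 at an unadjusted p under 0.05), 5 without sedentary 16 and 17, 4 without exercised 4 and 5, and 3 (without sedentary 23) to 37 (without sedentary 13) without 1 array. The cause was not tested.

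The difference in the log2 ratio of Acsl4 to Acsl1 was 0.40 for the brightest probe sets. It was 0.45 with a pseudocount of 154, 0.35 with one of 657 and 0.49 with values floored at 363. With the pseudocount of 363 it was 0.25 against rc_AA893242_at and 0.16 against rc_AA893242_g_at. With D85189_at for Acsl4 it was 0.22 against D90109_at, 0.0045 against rc_AA893242_at, -0.081 against rc_AA893242_g_at and 0.16 against rc_AI044900_s_at. With rc_AI045002_at it was 0.10, -0.12, -0.20 and 0.037 in that order.

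Differences near 0 changed sign. Acsl5 AB012933_g_at was 0.0052 with median scaling, 0.0054 without sedentary 16 and 17, 0.0012 without exercised 4 and 5, and -0.0094 to 0.014 without 1 array. Acsl3 D30666_at was -0.0021 with array weights, -0.030 without sedentary 16 and 17, and -0.020 to 0.052 without 1 array. Acsl6 was 0.0062 with array weights and -0.050 to 0.011 without 1 array. Acsl1 rc_AA893242_g_at was -0.0064 without sedentary 16 and 17. Among the Pearson r, Acsl3 with Acsl5 was 0.12 after quantile normalization and 0.030 with median scaling, and Acsl1 with Acsl5 was 0.0067 with median scaling and -0.27 to 0.34 without 1 array. Without sedentary 16 and 17, r was -0.34 for Acsl4 with Acsl6 and 0.21 for Acsl5 with Acsl6. Without 1 array, r ran from -0.046 to 0.37 for Acsl1 with Acsl4, from -0.81 to 0.0021 for Acsl3 with Acsl6, from -0.10 to 0.29 for Acsl4 with Acsl6, and from -0.27 to 0.15 for Acsl5 with Acsl6. No paired analysis was possible because the title numbers are not shared between the groups. Of the 3 dim probe sets, rc_AI045002_at averaged 400.3, near the pseudocount of 363, and D85189_at (145) and rc_AA900989_at (141) lay well below it, which shrinks their differences.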
